A study of Mus musculus with 6 samples.

Results

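The IGF and insulin receptor axis was followed through 10 genes, taken by symbol from the 21878 gene rows of each library: the ligand Igf1, the receptors Igf1r, Insr and Igf2r, the adaptors Irs1, Irs2, Shc1 and Grb10, and the binding proteins Igfbp4 and Igfbp7. RNA-seq had been performed on HSCs sorted from the BM of WT mice by the surface gate CD34-Flk2-Lineage-Sca1+c-Kit+, with 3 libraries from control mice and 3 from IGF1-treated mice. Per the methods of the study, the treatment was 1 subcutaneous dose of 200 µg/kg recombinant IGF1, the cells were taken at day 1 and the control mice received vehicle, and the age and the number of mice behind a library are not given in the sources used here. The text on extraction in the sample labels speaks of control or irradiated (IR) mice, whereas the label for treatment names IGF1, as do the series design and the study, and the groups here follow the treatment label. No label says that the libraries of a group came from separate mice, so p-values measure the spread between these libraries, which may be technical.

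IGF1 and insulin bind related receptor tyrosine kinases, IGF1R and INSR, which phosphorylate docking proteins of the IRS and SHC families and so feed the PI3K-AKT-mTOR and RAS-MAPK cascades. GRB10 binds the activated receptors and restrains them, whereas IGF2R carries no kinase and removes IGF2 and mannose-6-phosphate-tagged enzymes to lysosomes. IGF-binding proteins hold the ligand outside the cell and set how much of it reaches the receptors.

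Control replicate 2 stood apart from its group before any gene of the axis was considered. Its reads differed from those of the other control libraries by a chi-squared per gene of 227 to 229, and from those of the IGF1 libraries by 24.3 to 27.6, whereas control replicates 1 and 3 differed by 1.52 and the IGF1 libraries among themselves by 1.69 to 1.89. The fold changes of the axis below are therefore given with and without control replicate 2. The sorted label was also checked against its markers, and Cd34 (230 to 640 FPKM) and Flt3 (117 to 188 FPKM), the genes of the antigens CD34 and Flk2 that the gate leaves out, were abundant in all 6 libraries. Cd34 was lower after IGF1 (640, 265 and 634 FPKM in controls, 230 to 238 FPKM after IGF1). Flt3 was higher (117, 172 and 117 FPKM in controls, 183 to 188 FPKM after IGF1), and the groups did not overlap for either gene. The myeloid granule gene Mpo was at 1613 to 1705 FPKM, and the HSC genes Slamf1 and Mecom reached 2.41 and 4.10 FPKM at most. FPKM is the number of fragments scaled to the length of the transcript and the depth of the library. Estimated depth was about 11325386 to 16119231 reads per library, recovered from the steps of the FPKM values. In such bulk samples, fewer cells of a type and less RNA per cell cannot be told apart.

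When HSCs of IGF1-treated and vehicle-treated mice were compared, the values of all 3 receptors and of Irs2 were higher, and those of Grb10 and Shc1 lower, in each IGF1 library than in any control, and the ligand and both binding proteins overlapped between groups. None of these genes was called with all 6 libraries, and Igf2r lay below the filter of the test. Of the 10 genes, 7 passed the filter of at least 1 FPKM in at least 3 libraries, and 0 of the 7 were called at a fold over 2 and a limma adjusted p under 0.05, where 6.61% of all 10449 genes tested were. At an unadjusted p under 0.05, Igf1r and Insr were higher and Grb10 and Shc1 lower, 4 of 7, against 53.4% of all genes tested. The groups did not overlap for 5 of the 7, with Igf1r, Insr and Irs2 higher in IGF1 and Grb10 and Shc1 lower. Over all genes tested, 21.9% did not overlap and were higher (3 of 7 in the axis) and 37.4% did not overlap and were lower (2 of 7 in the axis). With control replicate 2 left out, 3 of the 7 were called (Insr, Grb10 and Shc1), where 32.9% of all genes tested were. Grb10 passed the filter only through the 3 controls, where it was high, and it is among the 7 in all these counts. The median log2 fold change over all genes tested was -0.18 with FPKM as deposited and 0.04 after scaling to the 75th percentile, so a fold change near these values has no firm sign.

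**Figure D1:**
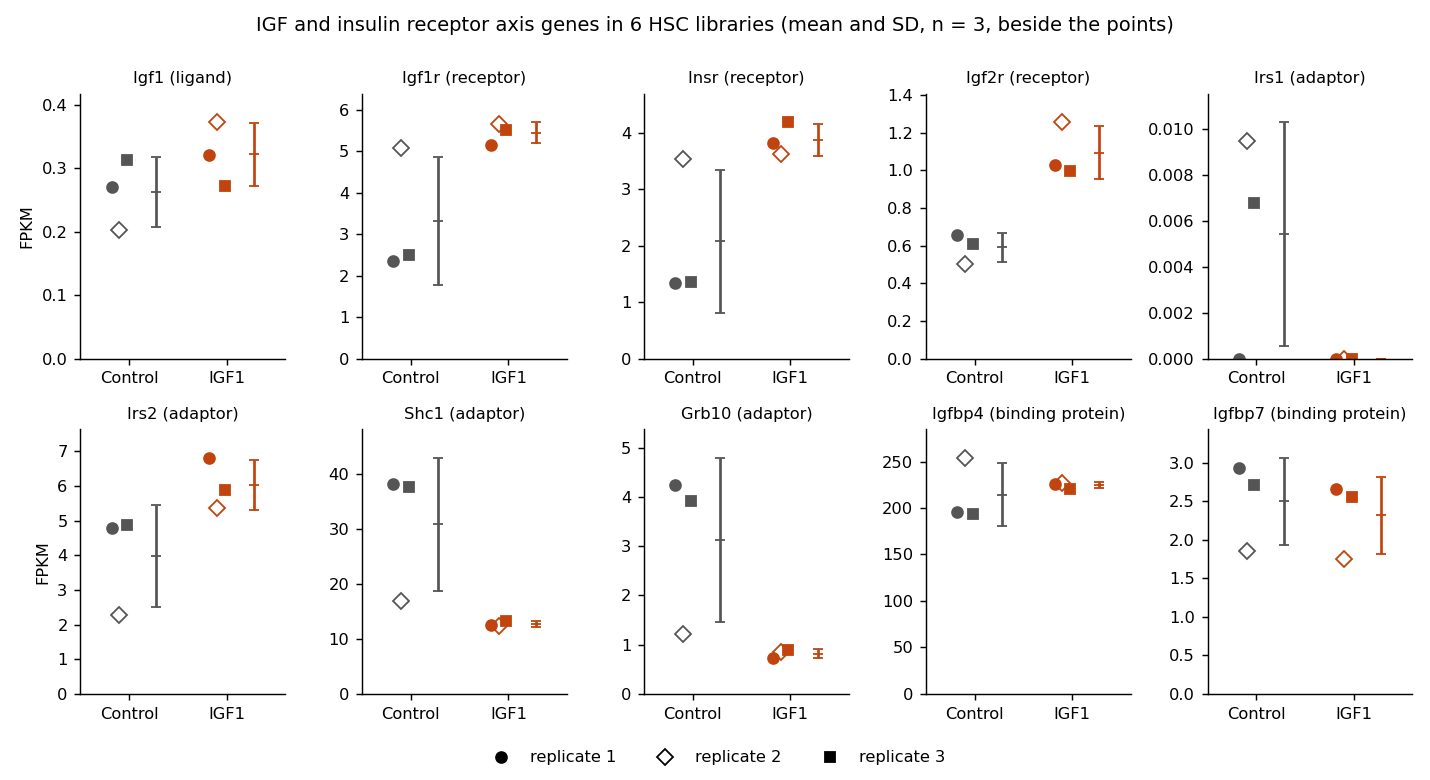
FPKM of the 10 genes in the 6 HSC libraries, 1 panel per gene, with the vertical axis of each panel starting at 0. Grey points are control and orange points IGF1 libraries, the open diamond is replicate 2 of each group, and the bar beside the points gives the mean ± SD (n = 3). Control replicate 2 lies beside the IGF1 libraries for Igf1r, Insr, Shc1 and Grb10, and on the far side of the other controls for Irs2 and Igf2r.

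The sequences around the transcription start are shown for the receptor and adaptor genes that were higher (Igf1r, Igf2r, Irs2) or lower (Shc1, Grb10) in all IGF1 libraries and had an entry, so that the starts of genes moving in opposite directions can be set side by side. They come from RefSeq on GRCm38.p6 and each hold 300 bases around the start in that source, most of them upstream, 5′ to 3′ on the strand of the gene. The windows of Igf1r and Irs2 lie wholly upstream of the GENCODE bounds given below for these genes. Entries were matched for 9 of the 10 genes, and Insr was not matched. Capitals mark the GC box GGGCGG on either strand.
Igf1r, chr7:67952007-67952306 (+): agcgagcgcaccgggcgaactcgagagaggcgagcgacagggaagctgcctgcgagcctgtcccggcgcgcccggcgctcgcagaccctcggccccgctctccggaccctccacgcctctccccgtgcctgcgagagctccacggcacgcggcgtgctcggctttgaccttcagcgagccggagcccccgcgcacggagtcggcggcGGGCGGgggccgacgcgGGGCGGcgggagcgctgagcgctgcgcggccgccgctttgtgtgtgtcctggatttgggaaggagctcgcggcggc
Igf2r, chr17:12769657-12769956 (-): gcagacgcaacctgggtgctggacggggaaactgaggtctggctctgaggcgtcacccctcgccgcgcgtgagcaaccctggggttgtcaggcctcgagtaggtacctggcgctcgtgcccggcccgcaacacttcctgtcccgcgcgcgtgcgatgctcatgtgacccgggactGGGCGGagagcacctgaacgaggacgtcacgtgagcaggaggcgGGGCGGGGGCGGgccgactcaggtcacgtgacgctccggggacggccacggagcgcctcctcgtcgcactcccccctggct
Irs2, chr8:11008880-11009179 (-): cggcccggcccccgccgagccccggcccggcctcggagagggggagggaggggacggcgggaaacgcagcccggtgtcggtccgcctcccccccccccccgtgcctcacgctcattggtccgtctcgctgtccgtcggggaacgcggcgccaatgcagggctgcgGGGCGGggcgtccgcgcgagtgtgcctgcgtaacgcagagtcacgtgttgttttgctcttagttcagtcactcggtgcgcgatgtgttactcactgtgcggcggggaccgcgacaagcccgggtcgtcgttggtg
Shc1, chr3:89418301-89418600 (+): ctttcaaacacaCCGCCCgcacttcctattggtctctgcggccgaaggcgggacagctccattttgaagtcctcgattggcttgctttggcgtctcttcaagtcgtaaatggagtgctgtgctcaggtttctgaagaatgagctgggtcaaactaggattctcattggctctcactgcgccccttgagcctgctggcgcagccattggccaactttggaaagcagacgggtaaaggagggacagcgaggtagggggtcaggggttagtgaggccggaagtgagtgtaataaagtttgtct
Grb10, chr11:12037371-12037670 (-): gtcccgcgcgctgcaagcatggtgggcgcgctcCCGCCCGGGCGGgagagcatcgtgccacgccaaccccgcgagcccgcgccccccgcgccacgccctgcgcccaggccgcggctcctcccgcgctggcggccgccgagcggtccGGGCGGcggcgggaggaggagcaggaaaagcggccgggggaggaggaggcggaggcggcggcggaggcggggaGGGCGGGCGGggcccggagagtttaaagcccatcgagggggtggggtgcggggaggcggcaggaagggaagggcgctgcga
The window of Igf1r was 76.0% G or C and held 2 GC boxes, that of Igf2r was 70.7% and held 3, that of Irs2 was 72.0% and held 1, and that of Grb10 was 80.0% and held 5. The Shc1 window was 53.7% G or C with 1 GC box, close to the median of 52.7% over all 32851 promoters, 35.7% of which hold the motif. A further start of Grb10 at chr11:12027922-12028221 (52.3% G or C) and one of Shc1 at chr3:89421371-89421670 (53.3%) held no GC box. The forkhead core TGTTTAC, the motif of the FOXO factors that insulin signalling keeps out of the nucleus, was searched on both strands and was in none of the windows of the axis, and 3.65% of all promoters hold it. TATAAA was found in the Igfbp4 window alone among those matched, against 13.6% of all promoters. GC-rich windows were found for genes that were higher (Igf1r, Igf2r, Irs2) and lower (Grb10) in IGF1 libraries, and a match of letters is a description and not a binding site.

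The ligand was barely transcribed in these cells. Igf1 (chr10:87858265-87937042, plus strand, GRCm38) was at 0.270, 0.203 and 0.312 FPKM in control replicates 1 to 3 and at 0.321, 0.372 and 0.272 FPKM in IGF1 replicates 1 to 3, from 20 to 43 reads per library. The groups overlapped, and the counting interval of every library (95% Poisson limits, counting error only) took in values of the other group. Its mean was 0.262 ± 0.055 FPKM in controls and 0.322 ± 0.0498 FPKM in IGF1 libraries (SD, n = 3). The gene was in 0 libraries at 1 FPKM or more and was not tested. The other ligands were lower still, since Ins1 and Ins2, the insulin genes, were listed at 0 in all libraries and Igf2 did not exceed 0.113 FPKM.

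Igf1r (chr7:67952827-68233668, plus strand), which encodes the main receptor of IGF1, was at 2.35, 5.08 and 2.49 FPKM in controls and at 5.16, 5.65 and 5.51 FPKM after IGF1. All IGF1 libraries were above all controls, but control replicate 2 came close to the lowest of them. The means were 3.31 ± 1.54 and 5.44 ± 0.254 FPKM (SD, n = 3), from 478 to 902 reads per library. On the log2(FPKM + 1) scale the difference was 0.64 (SE 0.25, 95% interval 0.03 to 1.24, limma adjusted p = 0.0856), and the 2-sided exact permutation p was 0.1, the smallest that 3 against 3 allows. Without control replicate 2 it was 0.91 (limma adjusted p = 7.1e-07), a difference on this scale below the fold of 2 required for a call. The ratio of FPKM means was 2.25 without that library and 1.64 with all libraries.

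Insr (chr8:3122061-3279617, minus strand), which encodes the insulin receptor and forms hybrids with IGF1R, showed the same arrangement at a lower level. It was at 1.33, 3.53 and 1.36 FPKM in controls and 3.82, 3.63 and 4.18 FPKM after IGF1, so that the lowest IGF1 value lay just above control replicate 2 and well above the other controls. The means were 2.08 ± 1.26 and 3.88 ± 0.282 FPKM (SD, n = 3), from 201 to 508 reads. The log2 difference was 0.74 (SE 0.28, 95% interval 0.06 to 1.42, limma adjusted p = 0.0799). Left without control replicate 2 it was 1.05 (limma adjusted p = 5.3e-07) and was called, a 2.88-fold ratio of FPKM means against 1.87-fold with all libraries.

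Igf2r (chr17:12682406-12769664, minus strand), an imprinted gene that encodes the cation-independent mannose-6-phosphate receptor, was at 0.657, 0.505 and 0.611 FPKM in controls and 1.03, 1.26 and 0.999 FPKM after IGF1. Here control replicate 2 was the lowest of all libraries, so the separation of the groups did not depend on how that library was treated. The means were 0.591 ± 0.0782 and 1.09 ± 0.14 FPKM (SD, n = 3), a ratio of 1.85, and 1.73 without control replicate 2, from 52 to 127 reads per library. The gene missed the filter because 2 libraries reached 1 FPKM and the next was at 0.999. In a fit with no filter over 15640 genes, its log2 difference was 0.40 (SE 0.08, limma adjusted p = 0.0411), below the fold required for a call, and 10.8% of the genes in that fit had an adjusted p under 0.05. The antisense gene Airn shares 0 exon bases with Igf2r in GENCODE, and it was not a row of the files.

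The balance between receptors was compared within each library, where the scaling of the library cancels. The log2 ratio of Igf1r to Insr was 0.82, 0.53 and 0.87 in the controls and 0.43, 0.64 and 0.40 in the IGF1 libraries. The groups overlapped, with a difference of -0.25 (2-sided exact permutation p = 0.2, adjusted p = 0.4 over the 2 ratios compared). The log2 ratio of Igf1r to Igf2r was 1.84, 3.33 and 2.03 in the controls and 2.32, 2.17 and 2.46 in the IGF1 libraries. Control replicate 2 alone held the highest value, since its Igf1r was high and its Igf2r low. The difference was -0.08 (exact permutation p = 1, adjusted p = 1), and 0.39 without control replicate 2, so its sign rested on that library. Without it the groups did not overlap, and the exact permutation p was 0.2, the smallest that 2 against 3 libraries allow.

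Among the adaptors, Irs2 was the IRS gene detected above a few reads. Irs1 (chr1:82233101-82291416, minus strand) had 1 read in control replicate 2, 1 in control replicate 3 and 0 in the other libraries, all below the level that 3 reads give (0.0203 to 0.0289 FPKM). Irs2 (chr8:10984681-11008458, minus strand) was at 4.77, 2.29 and 4.88 FPKM in controls and 6.81, 5.37 and 5.89 FPKM after IGF1. No IGF1 library overlapped the controls, and control replicate 2 was the lowest library, away from the IGF1 group. The means were 3.98 ± 1.47 and 6.02 ± 0.732 FPKM (SD, n = 3), from 106 to 339 reads. The log2 difference was 0.54 (SE 0.26, 95% interval -0.09 to 1.17, limma adjusted p = 0.128) and 0.26 without control replicate 2 (limma adjusted p = 0.0167), neither of them a call. Irs2 shares 162 of 6323 exon bases with 9530052E02Rik on the opposite strand, and whether reads were counted by strand is not given in the sources used here.

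Shc1 (chr3:89418443-89430027, plus strand), which encodes the adaptor that links receptor tyrosine kinases to GRB2 and RAS, was the most abundant adaptor of the axis. It was at 38.1, 16.9 and 37.6 FPKM in controls and 12.5, 12.3 and 13.3 FPKM after IGF1. Every IGF1 library was below every control, and control replicate 2 lay nearer to the IGF1 group than to its own. The means were 30.9 ± 12.1 and 12.7 ± 0.528 FPKM (SD, n = 3), from 603 to 2645 reads. The log2 difference was -1.13 (SE 0.32, 95% interval -1.91 to -0.35, limma adjusted p = 0.0523), which missed the threshold, and -1.51 without control replicate 2 (limma adjusted p = 1.3e-09), which passed. The control mean was 2.43 times the IGF1 mean, and 2.98 times without that library.

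Grb10 (chr11:11930508-12038683, minus strand), an imprinted gene, was at 4.24, 1.21 and 3.92 FPKM in controls and 0.724, 0.843 and 0.889 FPKM after IGF1. The IGF1 libraries were again below all controls, and control replicate 2 again lay close to them. The means were 3.13 ± 1.67 and 0.819 ± 0.085 FPKM (SD, n = 3), from 47 to 356 reads. The log2 difference was -1.08 (SE 0.34, 95% interval -1.91 to -0.25, limma adjusted p = 0.0594) and -1.48 without control replicate 2 (limma adjusted p = 5.4e-08), when it was called. Grb10 reached 1 FPKM in the 3 controls alone and so entered the test only through the group where it was high. The control mean was 3.82 times the IGF1 mean, and 4.99 times without control replicate 2, the largest ratio among the 7 genes tested.

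Control replicate 2 was placed between the other controls and the IGF1 mean, with 0 at the mean FPKM of control replicates 1 and 3 and 1 at the IGF1 mean. Its position was 0.882 for Igf1r, 0.864 for Insr, 0.833 for Shc1 and 0.881 for Grb10. Over the 3438 genes called without this library its median position was 0.833 (quartiles 0.697 and 0.934), and all 4 values lay between these quartiles, although Igf1r was not itself among those genes. Irs2 (-2.12) and Igf2r (-0.281), which were not among them either, lay on the other side of the controls, as did Igf1 (-2.89) and Irs1 (-1.79). Igfbp4 (1.97) and Igfbp7 (1.93) lay beyond the IGF1 mean. Of the 3438 genes 0.0873% had a position below 0, but these were selected for a large difference, unlike Irs2 and Igf2r. Across the 6 libraries Igf1r correlated with Insr (r = 0.99) and Grb10 with Shc1 (r = 0.997), while Igf1r and Irs2 did not move together (r = 0.04). These coefficients of log2(FPKM + 1) rest on 6 points that share libraries and groups and are given as a description.

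**Figure D2:**
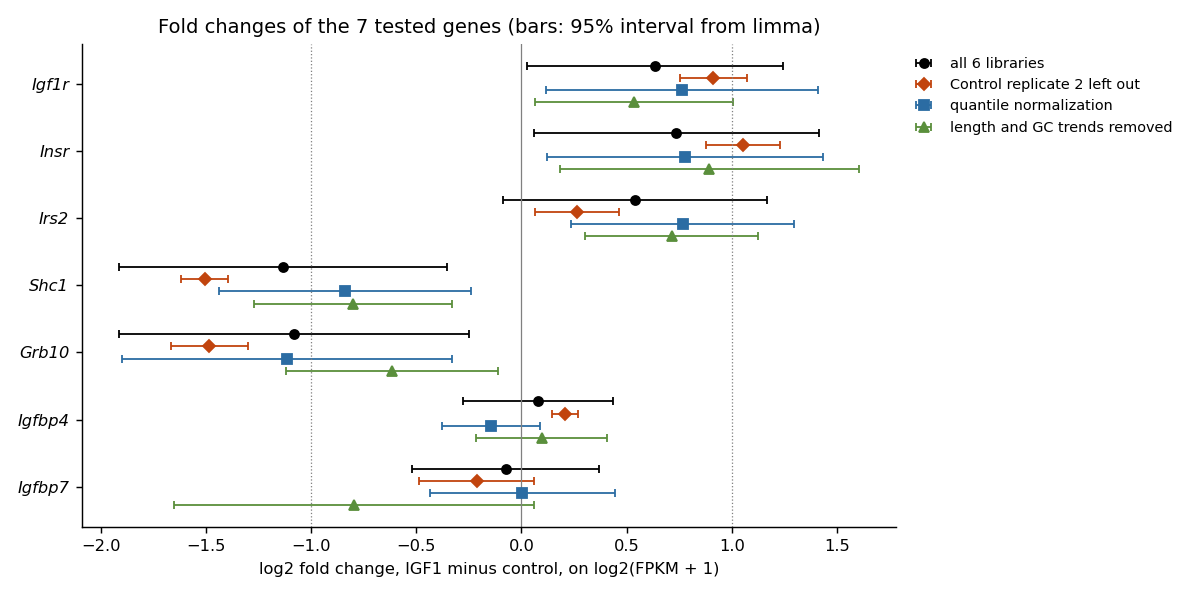
Log2 fold change (IGF1 minus control, on log2(FPKM + 1)) of the 7 tested genes with 95% intervals from limma, with all 6 libraries, without control replicate 2, after quantile normalization and after removal of trends on gene length and GC content. Dotted lines mark a fold of 2. Igf1r, Insr and Irs2 stay above 0 and Shc1 and Grb10 below 0 in each setting drawn, whereas Igfbp4 and Igfbp7 change sign under quantile normalization, Igfbp7 to 0.0049.

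The 2 binding proteins differed widely in level. Igfbp4 (chr11:99041244-99054392, plus strand), whose product binds IGF1 and IGF2 and is a substrate of PAPP-A, was at 196, 254 and 193 FPKM in controls and 226, 227 and 221 FPKM after IGF1, from 5325 to 6496 reads. The IGF1 values fell inside the range of the controls, where control replicate 2 was the highest. The means were 214 ± 34.3 and 225 ± 3.31 FPKM (SD, n = 3), and the log2 difference of 0.08 (SE 0.15, 95% interval -0.28 to 0.43, limma adjusted p = 0.658) turned to -0.14 under quantile normalization. Without control replicate 2 it was 0.21 (limma adjusted p = 4.6e-05), far below a fold of 2, and -0.13 with quantile normalization as well. Pappa and Pappa2, the genes of the proteases, did not exceed 0.048 FPKM.

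Igfbp7 (chr5:77349240-77408041, minus strand), which encodes a low-affinity IGF binder of the extracellular matrix, was at 2.93, 1.86 and 2.71 FPKM in controls and 2.66, 1.75 and 2.56 FPKM after IGF1, from 24 to 57 reads. The groups overlapped throughout, with means of 2.50 ± 0.568 and 2.32 ± 0.5 FPKM (SD, n = 3). The log2 difference was -0.07 (SE 0.18, 95% interval -0.52 to 0.37, limma adjusted p = 0.741) and had no firm sign, being 0.11 after scaling to the 75th percentile. It became -1.19 and a call (limma adjusted p = 7.9e-06) once trends on length and GC content were removed and control replicate 2 was left out. Igfbp7 shares 85 of its 1209 exon bases with Polr2b on the opposite strand, and Polr2b was at 62.7, 13.0 and 62.5 FPKM in controls and 10.3 to 10.7 FPKM after IGF1. The part of Polr2b reads in the Igfbp7 values was not tested.

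In order of level per length, Igfbp4 and then Shc1 stood first and second in both groups, apart from each other and from the rest. In the controls, Irs2, Igf1r, Grb10, Igfbp7 and Insr followed, and each overlapped its neighbour in that order. Igf2r, Igf1 and Irs1 closed the order and were apart from one another. In the IGF1 libraries Irs2 and Igf1r overlapped at 5.16 to 6.81 FPKM, followed by Insr, Igfbp7, Igf2r, Grb10, Igf1 and Irs1, each apart from the next. Grb10 stood at rank 5 in the controls and rank 8 in the IGF1 libraries, and Insr at rank 7 and rank 5. Without control replicate 2 the controls ran Igfbp4, Shc1, Irs2, Grb10, Igfbp7, Igf1r, Insr, Igf2r, Igf1 and Irs1, each apart from the next, so that Grb10 stood at rank 4 and Igf1r at rank 6.

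**Figure D3:**
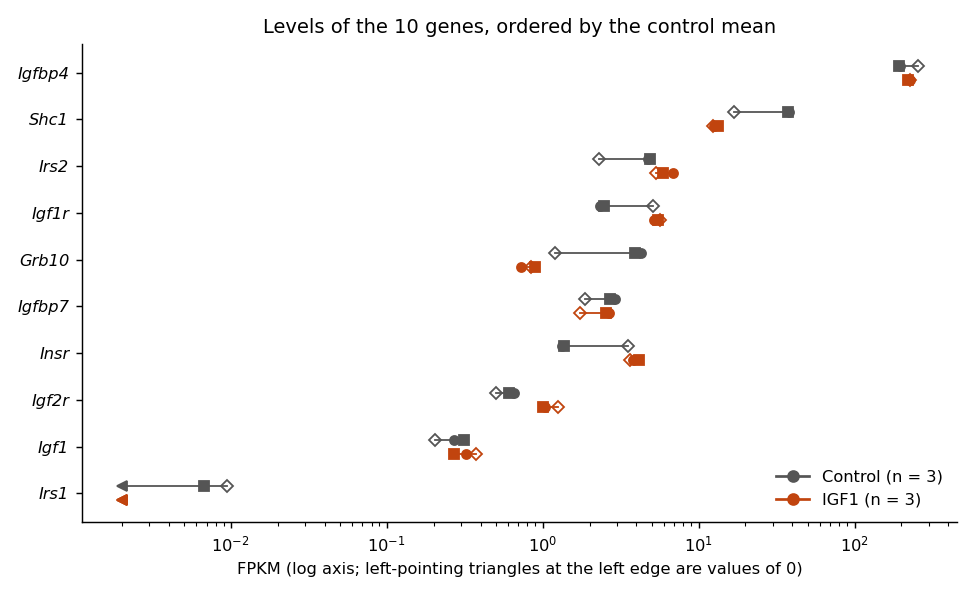
FPKM of the 10 genes on a log axis, ordered by the control mean, with grey points for the 3 control and orange points for the 3 IGF1 libraries and a line over the range of each group. The order runs from Igfbp4 at 193 to 254 FPKM to Irs1 at 0 to 0.00946 FPKM, and the grey open diamond of control replicate 2 is an end of the control range for each of the 10 genes.

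Other genes of the pathway were read from a list of 56 genes of known role, all of them rows of the files, of which 29 were tested and 9 were listed at 0 in all libraries. Of the 29, 0 were called higher and 2 lower, with a median log2 fold change of 0.02 beside 6.61% called and a median of -0.18 over all genes tested. Groups did not overlap for 6 higher and 11 lower, beside 21.9% and 37.4% of all genes tested, and overlapped for 12. Without control replicate 2, 2 were called higher and 7 lower, beside 32.9% of all genes tested. These counts of the list were near the background. The 2 called genes, Nck1 and Crk, encode SH2/SH3 adaptors that couple receptor tyrosine kinases to the cytoskeleton and to small GTPases. Nck1 was at 13.0, 9.54 and 13.5 FPKM in controls and 5.60, 4.71 and 4.86 FPKM after IGF1, a log2 difference of -1.09 (SE 0.16, limma adjusted p = 0.0287). Crk was at 21.6, 12.7 and 21.4 FPKM in controls and 8.33, 8.20 and 7.99 FPKM after IGF1, a log2 difference of -1.06 (SE 0.22, limma adjusted p = 0.0382). Without control replicate 2 the differences were -1.24 for Nck1 and -1.30 for Crk, both called. Both calls were lost under quantile normalization, scaling to the 75th percentile, a pseudocount of 5 or removal of both trends, and when any 1 library other than control replicate 2 was left out, with 0 of the list called in each case. With any 1 such library left out, 0 of all genes tested were called, so that loss was not particular to Nck1 and Crk. They were also lost with the length trend removed (Nck1 -0.72, Crk -0.84, both below a fold of 2). There the 2 genes called, Sh2b2 at 1.11 and Dok3 at 1.80, were higher. Which genes of the list were called thus changed between these settings, while Nck1 and Crk stayed lower in both.

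Among the other adaptors, 17 of 24 were tested, with 4 higher and 6 lower at an unadjusted p under 0.05, beside 53.4% of all genes tested. Sh2b2, whose product binds the insulin receptor, was at 4.82 to 5.61 FPKM in controls and 8.20 to 9.61 FPKM after IGF1, a log2 difference of 0.65 (limma adjusted p = 0.0363) that stayed 0.64 without control replicate 2. Dok1, of the DOK family of docking proteins, was at 19.8 to 22.6 and 13.9 to 14.7 FPKM, a log2 difference of -0.55 (limma adjusted p = 0.0358) and of -0.60 without control replicate 2. Both differences were below the fold required for a call. Gigyf1, whose product binds GRB10, and Dok3 were picked after their values were seen, and Gigyf1 was at 1.40, 5.94 and 1.43 FPKM in controls and 7.38 to 7.91 FPKM after IGF1 (log2 difference 1.32, limma adjusted p = 0.0620, and 1.83 without control replicate 2, when it was called). Dok3 was at 3.30, 10.3 and 3.28 FPKM against 13.9 to 14.6 FPKM (log2 difference 1.36, limma adjusted p = 0.0537, and 1.82 without control replicate 2, when it was called). Grb2, the partner of SHC1, overlapped between groups at 56.3 to 64.6 FPKM. Irs4, Shc2 and Shc3 were listed at 0 in all libraries, and Irs3 and Shc4 did not exceed 0.0378 and 0.444 FPKM, so Irs2 and Shc1 were the members of their families with the highest levels here.

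Of the genes for receptor phosphatases and turnover, 10 of 12 were tested and 0 were called, beside 6.61% of all genes tested, with 0 higher and 3 lower at an unadjusted p under 0.05, beside 53.4%. Nedd4, a ubiquitin ligase that acts on IGF1R together with GRB10, was at 54.7, 27.7 and 55.3 FPKM in controls and 20.6 to 22.1 FPKM after IGF1, a log2 difference of -1.01 (limma adjusted p = 0.0507). Ide, the insulin-degrading enzyme, was at 48.9, 15.7 and 47.8 FPKM against 13.4 to 14.5 FPKM (-1.22, limma adjusted p = 0.0727), and the phosphatase gene Ptpn2 was at 7.18 to 12.5 against 6.22 to 6.89 FPKM (-0.60, limma adjusted p = 0.0756). For all 3 genes the IGF1 libraries were below the controls and control replicate 2 was the nearest of these. Without that library the differences were -1.34 for Nedd4 and -1.74 for Ide, both called, and -0.84 for Ptpn2. Socs3, whose groups overlapped with all 6 libraries, was called then too (-1.88), whereas Ptpn11 lay the other way at 0.95. Of the 10 tested, 3 were then called lower and 0 higher, beside 32.9% called over all genes tested. M6pr, which encodes the cation-dependent mannose-6-phosphate receptor beside that of Igf2r, was at 179, 91.5 and 183 FPKM in controls and 69.2 to 71.6 FPKM after IGF1 (-1.03, limma adjusted p = 0.0506, and -1.36 without control replicate 2, when it was called), while Igf2r was higher. Igf2bp2, an IGF2 mRNA-binding protein gene, was at 1.02 to 1.24 and 0.408 to 0.807 FPKM (-0.39, limma adjusted p = 0.0595, and -0.38 without control replicate 2), and it passed the filter only through the controls. None of the 12 other binding protein and protease genes passed the filter, and the highest of them, Igfbp6, was at 0.241 to 0.403 FPKM in controls and 0.891 to 0.963 FPKM after IGF1.

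**Figure D4:**
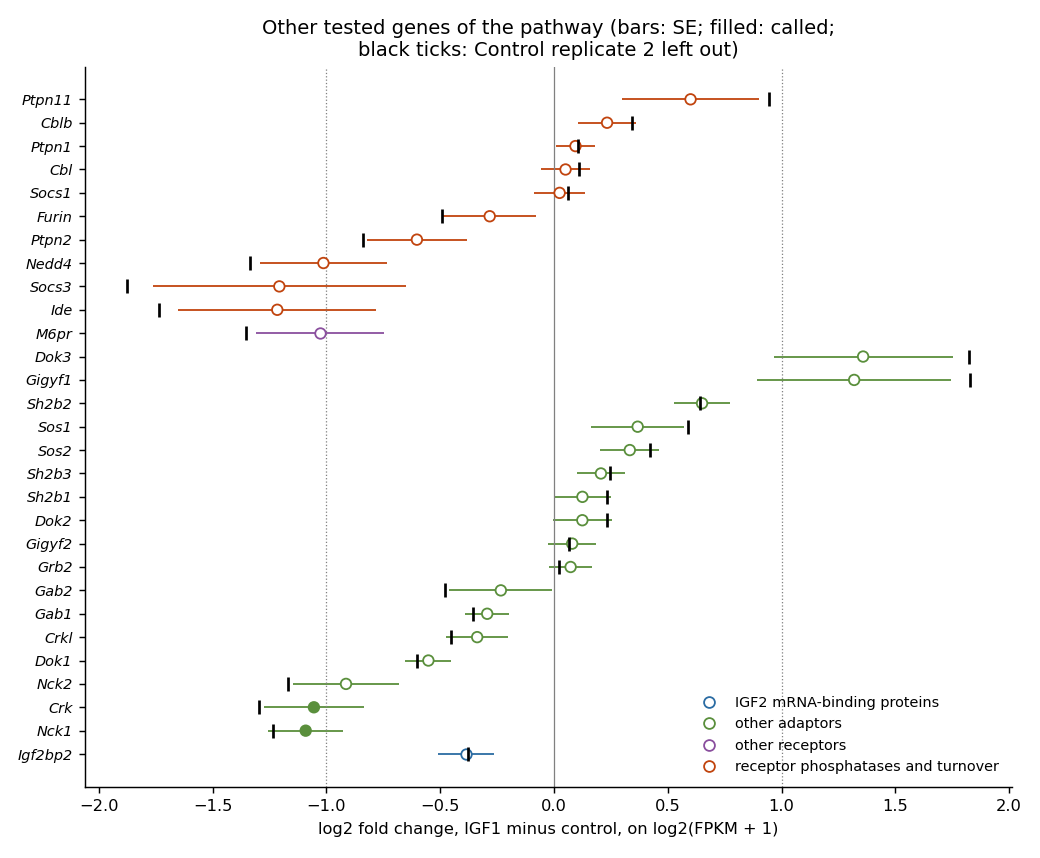
Log2 fold change (IGF1 minus control, on log2(FPKM + 1)) of the 29 tested genes of the pathway list, coloured by role, with the SE from limma as bars. Filled points are the called genes Nck1 and Crk, black ticks give the value without control replicate 2, and dotted lines mark a fold of 2. The points lie on both sides of 0, from Dok3 at 1.36 to Ide at -1.22.

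The genes whose pattern was most like that of a receptor were taken from all genes tested by Pearson r of log2(FPKM + 1) over the 6 libraries, and the points share libraries and scaling. For Igf1r these were Tial1, Rfx3 and Il6ra (r from 0.999 upward), but 2097 genes had an r over 0.95. For Insr they were Idnk, Zcchc17 and Rps2, and 2070 genes passed that r. Igf2r, whose pattern ranks control replicate 2 lowest, had 74 such genes, led by Rel, Slc41a3 and Ankrd54 (r from 0.992 to 0.998). Rel, which encodes the NF-kappaB subunit c-Rel, was at 3.07, 2.55 and 2.95 FPKM in controls and 4.59, 5.67 and 4.71 FPKM after IGF1. The patterns of Igf1r and Insr were thus shared with a large part of the transcriptome, and that of Igf2r with fewer genes.

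Marker lists of other cells were summed in each library and read beside the axis. In the neutrophil and monocyte list, 4 of 7 tested genes were called lower (S100a8, S100a9, Ngp and Camp) and 0 higher, beside 6.61% called over all genes tested. Elane, of the same list, lay the other way at 92.8, 576 and 92.4 FPKM in controls and 692 to 709 FPKM after IGF1, a log2 difference of 2.03 (limma adjusted p = 0.0726) and of 2.90 without control replicate 2, when it was called. The list summed to 2270 to 2447 FPKM in controls and 2450 to 2458 FPKM after IGF1. The B cell list had 0 of 5 called, with sums of 111, 419 and 110 FPKM in controls and 388 to 404 FPKM after IGF1. These overlapped through control replicate 2 alone. Without that library 4 of the 5 were called higher and 0 lower, beside 32.9% called over all genes tested. The stromal and endothelial list, which marks cells known to secrete IGF1 and IGF-binding proteins, had 0 of 3 called and overlapping sums of 8.95 to 20.7 and 10.4 to 10.8 FPKM. Its 3 tested genes were Emcn at 6.77 to 15.2 FPKM over all libraries, Sparc at 0.131 to 3.31 FPKM and Adipoq, which was at 0 to 0.554 FPKM in controls and 1.11 to 1.43 FPKM after IGF1 (limma adjusted p = 0.0459, below the fold required for a call, and tested only through the IGF1 libraries). The other 7 genes of that list did not pass the filter, and Cxcl12 was the highest of them at 0.723 FPKM at most. The macrophage list had 0 of 4 called and overlapping sums of 29.4 to 46.8 and 27.7 to 30.8 FPKM. In both the stromal and the macrophage sums control replicate 2 was the lowest control and alone brought the overlap. Without that library 0 of 3 and 1 of 4 were called. Of the HSC list 0 of 8 were called, and Kit was at 105, 31.4 and 104 FPKM in controls and 24.2 to 24.6 FPKM after IGF1 (log2 difference -1.49, and -2.06 without control replicate 2, when it was called). The part of these cells in the values of the axis was not tested.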

How the data were processed

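The labels gave 3 control and 3 IGF1 libraries of sorted HSCs. The files the authors deposited list 21878 gene rows with 1 value each, of which 4 share a name with another row. The values were taken as FPKM because the values of a gene rise in whole steps. The submitters' processing notes name fastp, HISAT2, StringTie and GRCm38 (mm10), whereas the study's methods name fastp, RSEM and DESeq2, and the library kit was strand-specific. Whole reads were recovered for 15631 of 15640 rows above 0 and used for depth, chi-squared between libraries and voom. Absolute depth is approximate.

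The 10449 genes that reached 1 FPKM in 3 or more libraries were tested on log2(FPKM + 1), computed from the deposited values, with limma 3.58.1 in R 4.3.3 (lmFit, eBayes with trend, Benjamini-Hochberg). A gene was called at a fold over 2 and an adjusted p under 0.05. The scale understates changes of low genes. Exact permutation tests used scipy 1.17.1. Locations are from GENCODE M21. The steps were tested on simulated data.

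Members and lists were chosen with earlier results of these data known. Named were all members, called genes of the pathway list and up to 3 per role by adjusted p, 3 genes most like each receptor, and marker genes. Alternatives were other pseudocounts, filters, scalings, library weights, voom, a replicate block, trend removal and leaving out libraries.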

Additional observations from a re-analysis of the deposited data

How the results depend on the processing

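Igf1r, Insr, Irs2, Shc1 and Grb10 kept their direction under every alternative in which they were tested. Insr and Grb10 did not pass the filter at a minimum of 5 FPKM. The log2 fold changes ran from 0.34 to 1.08 for Igf1r, 0.34 to 1.23 for Insr, 0.26 to 0.99 for Irs2, -1.51 to -0.70 for Shc1 and -1.76 to -0.46 for Grb10. Igfbp4 reversed to -0.14 under quantile normalization and to -0.13 with control replicate 2 also left out. Igfbp7 reversed to 0.0049 under quantile normalization, 0.11 after scaling to the 75th percentile, 0.017 without control replicate 1 and 0.058 without IGF1 replicate 2, with a range of -0.21 to 0.058 when 1 library was left out. The cause was not tested.

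Genes called among all tested numbered 691, and 223 with a pseudocount of 5, 374 with no filter, 3435 with library weights, 1063 with voom on recovered reads, 2130 at an adjusted p alone and 333 with length and GC trends removed. Leaving out 1 library gave 0 to 3438, the highest without control replicate 2 and 0 without any other. With control replicate 2 left out, quantile normalization gave 2908 and the removal of both trends 1917; both settings and the trend removal above were added after seeing the data. Of the axis, 0 were called, but 3 with library weights, 4 with quantile normalization and 3 with both trends removed when control replicate 2 was left out, and 0 to 3 when 1 library was left out. Of the pathway list, 2 were called, but 0 with a pseudocount of 5, quantile normalization, scaling to the 75th percentile or both trends removed. With the length trend alone removed 2 were called, but both were higher where both had been lower, and Nck1 and Crk were not among them. The list gave 4 with voom, 9 with library weights, 5 at an adjusted p alone, 0 to 9 when 1 library was left out, and 7 and 6 in the added settings without control replicate 2. Of the called genes 30.0% were higher with FPKM as deposited, 48.8% under quantile normalization, 53.7% after scaling to the 75th percentile, 54.3% with the length trend removed and 58.0% with both trends removed. The difference in log2 Igf1r/Igf2r ran from -0.36 to 0.39 when 1 library was left out, reversed without control replicate 2, and that in log2 Igf1r/Insr from -0.35 to -0.18.

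With the replicate number as a block, 0 genes were called among all tested and 0 of the pathway list. The deviations of libraries with the same number correlated at -0.06, -0.05 and 0.01. Control replicate 2 stood far from the other controls and so shaped the deviations of the whole group. These correlations therefore cannot show whether libraries with the same number belong together. The array weight of control replicate 2 was 0.0137 against 1.90 to 3.64 for the others. Depth limits Irs1, with 2 reads in all, and Igf1, with 20 to 43 reads per library.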

Other observations

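Marker lists that no comparison of the axis touched gave the following values. Of the megakaryocyte and platelet list 0 of 5 tested genes were called, beside 6.61% of all genes tested. The list summed to 57.9, 76.6 and 58.1 FPKM in the controls and 93.6 to 105 FPKM in the IGF1 libraries, with Gp6 at 0 in all libraries. Pf4, a platelet chemokine gene, was at 15.6, 48.6 and 15.1 FPKM in the controls and 63.1 to 73.7 FPKM in the IGF1 libraries (log2 difference 1.54, limma adjusted p = 0.0539, and 2.08 without control replicate 2, when it was called). Itga2b, the integrin gene of the platelet lineage, overlapped between groups at 32.2, 16.8 and 32.3 FPKM in the controls and 17.9 to 19.3 FPKM with IGF1 (-0.48, limma adjusted p = 0.171, and -0.78 without control replicate 2), as did Gp5 at 5.56, 2.68 and 5.70 against 3.32 to 3.63 FPKM (-0.30, limma adjusted p = 0.348, and -0.58 without that library). Gp9, of the same list, was at 2.83, 6.04 and 3.16 FPKM in the controls and 6.85 to 8.39 FPKM in the IGF1 libraries. Its log2 difference was 0.86 (limma adjusted p = 0.0552), and 1.13 without control replicate 2, when it was called. Pf4 and Gp9 thus were higher, whereas Itga2b and Gp5 had lower means. Without control replicate 2, 2 of the list were called higher and 0 lower, beside 32.9% called over all genes tested. Of the T and NK cell list 0 of 2 were called, and of the erythroid list 0 of 4, beside 6.61% of all genes tested. Nkg7, of the T and NK cell list, was at 366, 776 and 356 FPKM in the controls and 767 to 787 FPKM in the IGF1 libraries. Its log2 difference was 0.74 (limma adjusted p = 0.112), and 1.11 without control replicate 2, when it was called. The other, Klrb1c, differed by 0.07.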
